A study of Mus musculus with 8 samples.

Results

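The genes that write, copy, oxidize and remove cytosine methylation were followed in cultures of SSCs, the spermatogonial stem cells of the mouse testis, which renew themselves and give rise to all later germ cells there. The 9 genes, taken by symbol from a table of 55421 genes, were *Dnmt1*, *Dnmt3a*, *Dnmt3b*, *Dnmt3l*, *Uhrf1*, *Tet1*, *Tet2*, *Tet3* and *Tdg*, and all 9 passed the filter on low counts. SSC cultures from testes of 6-day-old C57BL/6XDBA/2 pups were grown on irradiated embryonic fibroblasts, so RNA of these feeder cells can be part of every library. Veh cultures stayed in complete SSC medium with vehicle, RA cultures received 100 nM retinoic acid in that medium, NR cultures were kept in 90% Earle's balanced salt solution (EBSS) with 10% complete medium, and NRRA cultures received this restricted medium together with 100 nM retinoic acid. Cells were collected after 48 h, and each of the 4 conditions had 2 libraries, which the study describes as independent biological replicates. The labels name no genetic modification of these cultures.

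DNA methylation in mammals sits mainly on cytosines that are followed by guanine (CG). *Dnmt1* encodes the methyltransferase that copies the pattern onto the new strand during DNA replication, guided by *Uhrf1*, which binds hemimethylated DNA, while *Dnmt3a* and *Dnmt3b* encode the enzymes that set new marks and *Dnmt3l* encodes their catalytically inactive cofactor. *Tet1*, *Tet2* and *Tet3* encode dioxygenases that oxidize 5-methylcytosine, and *Tdg* encodes the glycosylase that cuts out the most oxidized forms for repair. In the male germ line the pattern is erased in the fetus, set again before birth with the help of *Dnmt3l*, and then kept through the divisions of spermatogonia.

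RNA abundance was read as counts of reads per gene, 19261333 to 30023585 in total per library, and is given as CPM, the counts of a gene scaled to a common library total, after TMM normalization. At these depths 1 CPM stood for 19.2 to 31.1 reads. Of all genes in the table, 20477 were tested in 1 edgeR quasi-likelihood fit over the 8 libraries (biological coefficient of variation 3.35%, 4 residual degrees of freedom), and a difference was called at an adjusted p under 0.05 over all tested genes. The markers of the culture moved as follows. The germ cell gene *Ddx4* was present in every library (131 to 191 CPM), and the fibroblast gene *Col1a1* was also present in every library and was higher in both restricted conditions (7415 to 8110 CPM in NR and NRRA against 3203 to 3761 CPM in Veh and RA). *S100a4*, another fibroblast marker, went the other way, with 3.22 and 3.07 CPM in Veh, 1.99 and 1.98 with RA, 1.93 and 1.56 under NR, and 0.465 and 0.771 under NRRA. It rested on 13 to 65 counts per library, and 51.7% of its exon bases overlap *Gm42674* on the same strand, so its values are uncertain. *Stra8*, the retinoic acid target that gates meiosis, was at 1.14 to 1.51 CPM in Veh, 632 to 653 with RA, 14.3 to 14.6 under NR and 917 to 957 under NRRA. *Kit*, a marker of differentiating spermatogonia, ran from 6.31 CPM in Veh to 359 CPM in NRRA. Of 8 such markers, *Kit* and *Stra8* among them, 6 were higher and 2 lower in NRRA vs Veh. The counts were 5 and 1 in RA vs Veh, and 5 and 2 in NR vs Veh. *Dmrtb1*, 1 of the 8, fell in NRRA vs Veh by 1.38 on the log2 scale (edgeR adjusted p = 6.83e-06). The 8 summed to 1445 to 1475 CPM in Veh, 1960 to 1987 with RA, 1172 to 1191 under NR and 2302 to 2358 under NRRA. A large part of each sum was *Ccnd2*, 1 of the 8, with means of 1278 CPM in Veh, 854 with RA, 984 under NR and 753 under NRRA. The sums therefore do not show the course of most of the 8 markers, which the counts above give.

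The 9 genes did not move together. In NRRA, *Tet1*, *Tet2*, *Tet3*, *Dnmt3b* and, by a small amount, *Dnmt1* were higher than in Veh, whereas *Uhrf1*, *Dnmt3a* and *Dnmt3l* were lower, and *Tdg* was called in none of the comparisons. This made 5 higher and 3 lower genes of 9, where 30.1% of all tested genes were called higher and 28.7% lower in NRRA vs Veh. With RA alone 2 were higher (*Tet2*, *Tet3*) and 3 lower (*Dnmt3a*, *Dnmt3l*, *Uhrf1*), against 19.8% and 23.4% of all tested genes. With NR alone 4 were higher (*Dnmt3a* and the 3 *Tet* genes) and 2 lower (*Dnmt1*, *Uhrf1*), against 21.7% and 22.2% of all tested genes. The same 2 Veh libraries stand in all 3 of these comparisons. Within the retinoic acid pair, NRRA vs RA, 3 were higher (*Dnmt3a*, *Dnmt3b*, *Tet3*) and 2 lower (*Dnmt3l*, *Uhrf1*), with 20.9% and 19.4% in the background. Within the restricted pair, NRRA vs NR, 3 were higher (*Dnmt1*, *Dnmt3b*, *Tet3*) and 2 lower (*Dnmt3a*, *Dnmt3l*), with 21.3% and 22.1% in the background. Between the single treatments, NR vs RA, 4 were higher (*Dnmt3a*, *Dnmt3l*, *Tet1*, *Tet3*) and 2 lower (*Dnmt1*, *Uhrf1*), with 24.5% and 23.8% in the background.

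Most of these differences were small. When a fold change of at least 2 was also asked, only *Tet3* and *Dnmt3l* were called in NRRA vs Veh and only *Dnmt3l* in NRRA vs NR, and 0 members were called in the other 5 contrasts. The shares of all tested genes called by that rule were 15.9% in NRRA vs Veh, 8.7% in NRRA vs NR, 7.49% in RA vs Veh, 8.29% in NR vs Veh, 8.29% in NRRA vs RA, 12.5% in NR vs RA and 2.24% for the interaction described below. The split of all calls into higher and lower genes moved with the scaling. Higher genes made up 51.2% of calls in NRRA vs Veh, 63.1% when libraries were scaled by their totals and 41.5% when a trend with GC content and exon length was removed, and total scaling moved the median log2 difference of all genes in that comparison from 0.0297 to 0.143. The corresponding shares were 45.8%, 64.6% and 36.7% in RA vs Veh, 49.4%, 54.7% and 37.5% in NR vs Veh, and 49%, 63.8% and 44.7% in NRRA vs NR. In NR vs RA the share went from 50.8% to 40.7% with total scaling, and for the interaction from 49.2% to 60.2% with the trend removed. Member calls that were lost or gained under an alternative are named beside the results.

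**Figure D1:**
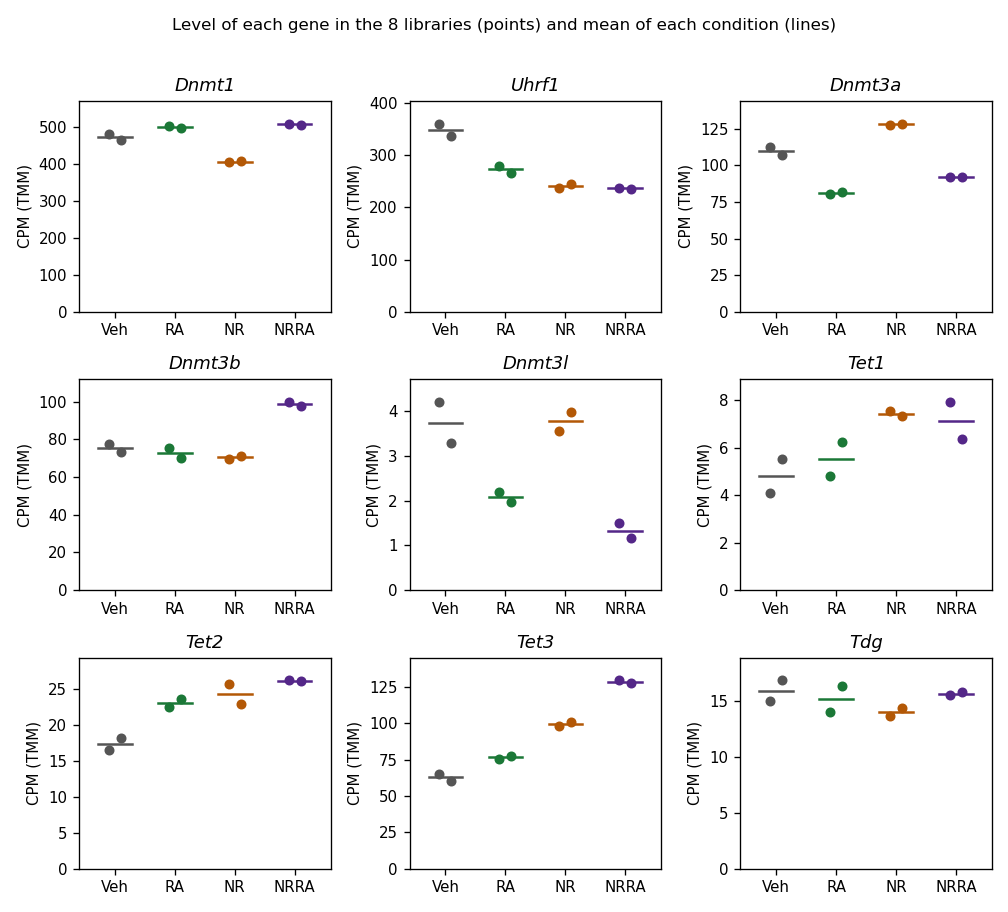
CPM after TMM scaling (y axis, from 0) of each of the 9 genes in Veh, RA, NR and NRRA (x axis), with 1 point per library and a line at the mean of the 2 libraries. *Tet3* climbs from 62.7 CPM in Veh to 129 CPM in NRRA with no overlap between conditions, *Dnmt3b* stands apart in NRRA alone (98.7 CPM), *Dnmt3l* is low with RA in either medium, and *Tdg* overlaps.

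The maintenance genes are described first. *Dnmt1* (chr9:20907209-20959888, minus strand, GRCm38) was at 480 and 464 CPM in the Veh libraries, 502 and 496 with RA, 405 and 406 under NR, and 508 and 504 under NRRA. NR was lowest, and the ranges of the 4 conditions did not overlap. In NR, *Dnmt1* fell by 0.22 on the log2 scale (SE 0.038, edgeR adjusted p = 3.22e-05), while in NRRA vs NR it rose by 0.32 (SE 0.038, edgeR adjusted p = 9.21e-08), back to the level of RA, from which NRRA differed by 0.021 (SE 0.037, edgeR adjusted p = 0.701). NR was below RA by a log2 difference of -0.30 (SE 0.038, edgeR adjusted p = 2.22e-07). The call of *Dnmt1* in NRRA vs Veh was a weak one, with a log2 difference of 0.10 (SE 0.038, edgeR adjusted p = 0.0229) that was lost with DESeq2 (0.070, adjusted p = 0.165), with DESeq2 size factors (adjusted p = 0.077), with only these 2 conditions in the fit (adjusted p = 0.0774), and without Veh replicate 2 (adjusted p = 0.0644), NRRA replicate 1 (adjusted p = 0.123) or NRRA replicate 2 (adjusted p = 0.0819). RA vs Veh gave a value of 0.080 for *Dnmt1* (SE 0.038, edgeR adjusted p = 0.0888), which passed the threshold with upper quartile scaling, with total scaling, with the GC and length trend removed, without Veh replicate 1 and without NR replicate 2.

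*Uhrf1* (chr17:56303321-56323486, plus strand) took another course. Its level was 361 and 337 CPM in Veh, 280 and 266 with RA, 237 and 245 under NR, and 238 and 236 under NRRA. Veh was above all 6 other libraries, RA lay between, and NR and NRRA overlapped. *Uhrf1* fell by 0.35 with RA (SE 0.044, edgeR adjusted p = 2.59e-07), by 0.53 under NR (SE 0.044, edgeR adjusted p = 1.36e-10) and by 0.56 under NRRA (SE 0.044, edgeR adjusted p = 2.33e-11), all on the log2 scale and relative to Veh. NRRA and NR differed by -0.026 (SE 0.044, edgeR adjusted p = 0.678), a value that turned to 0.056 with total scaling and to 0.0076 with the GC and length trend removed. It also fell by 0.20 in NRRA vs RA (SE 0.044, edgeR adjusted p = 0.000418) and by 0.18 in NR vs RA (SE 0.044, edgeR adjusted p = 0.00137). The decreases relative to Veh were called under all 16 alternative settings in each of the 3 comparisons.

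*Dnmt1* and *Uhrf1* are classical targets of E2F factors, which drive S-phase transcription, so their promoters were searched for E2F letters. The windows came from RefSeq (GRCm38.p6) and run from 250 bases before to 50 bases after an annotated start. The letters TTTCCCGC, TTTGGCGC and TTTCGCGC were searched on both strands and occurred in 1.07%, 0.514% and 0.323% of 32851 promoters, and any of them in 1.84%. Among the members, a match was found in 1 of the 3 windows of *Dnmt1* (chr9:20952574-20952873), with 2 matches at positions -219 and 34, and in 1 of the 2 windows of *Uhrf1* (chr17:56304063-56304362), with 1 match at position -185. In both genes this was the window of the start furthest downstream, from which the positions are counted. The windows of the upstream starts held no match. Both windows with a match held 33 CG, more than 91.4% of promoters. All 3 searched words contain CG, and the shares above are over promoters of any CG content. The sequences of the windows with a match are given on the gene's own strand, with the matched letters in capitals. In *Dnmt1* the match nearer the 5′ end reads on the opposite strand.
Dnmt1: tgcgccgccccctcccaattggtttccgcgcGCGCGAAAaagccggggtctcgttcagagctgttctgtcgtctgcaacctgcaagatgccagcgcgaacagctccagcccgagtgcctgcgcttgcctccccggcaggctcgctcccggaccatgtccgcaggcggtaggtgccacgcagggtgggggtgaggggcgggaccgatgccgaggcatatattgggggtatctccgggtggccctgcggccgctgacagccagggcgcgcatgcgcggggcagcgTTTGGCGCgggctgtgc
Uhrf1: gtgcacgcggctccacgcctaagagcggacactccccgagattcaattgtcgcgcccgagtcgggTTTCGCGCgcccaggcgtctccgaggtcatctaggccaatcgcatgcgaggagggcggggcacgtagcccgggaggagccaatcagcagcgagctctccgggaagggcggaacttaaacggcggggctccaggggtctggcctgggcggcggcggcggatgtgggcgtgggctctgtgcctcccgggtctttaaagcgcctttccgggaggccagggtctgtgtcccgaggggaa
These letters are shared by genes with unlike courses in the 4 conditions, and whether a factor binds there was not measured.

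Of the de novo enzymes, *Dnmt3a* and *Dnmt3b* moved in different directions. *Dnmt3a* (chr12:3806007-3914443, plus strand) was at 112 and 107 CPM in Veh, 80.5 and 82.0 with RA, 127 and 129 under NR, and 91.9 and 92.2 under NRRA. The order was RA, NRRA, Veh and NR from low to high, with no overlap, so that both conditions with retinoic acid were below both without it. *Dnmt3a* fell with retinoic acid in either medium, by 0.43 in RA vs Veh (SE 0.050, edgeR adjusted p = 7.77e-08) and by 0.48 in NRRA vs NR (SE 0.047, edgeR adjusted p = 5.03e-09). Restricted medium went with small increases, 0.22 in NR vs Veh (SE 0.048, edgeR adjusted p = 0.000454) and 0.18 in NRRA vs RA (SE 0.049, edgeR adjusted p = 0.00426), and both calls were lost when the trend with GC content and length was removed (0.082, adjusted p = 0.0896, and 0.058, adjusted p = 0.266). In NRRA vs Veh it fell by 0.25 (SE 0.048, edgeR adjusted p = 6.26e-05), and NR vs RA, the 2 ends of the order, differed by 0.65 (SE 0.049, edgeR adjusted p = 1.08e-11). Counts per gene do not separate the full-length transcript from the shorter one that starts at a downstream promoter within the gene.

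*Dnmt3b* (chr2:153649450-153687730, plus strand) was at 77.4 and 73.1 CPM in Veh, 75.4 and 70.2 with RA, 69.8 and 71.2 under NR, and 99.8 and 97.7 under NRRA. The 2 NRRA libraries stood above the 6 others, whose values lay between 69.8 and 77.4 CPM. *Dnmt3b* rose in NRRA by 0.39 relative to Veh (SE 0.053, edgeR adjusted p = 4.84e-07), by 0.44 relative to RA (SE 0.052, edgeR adjusted p = 9.74e-08) and by 0.49 relative to NR (SE 0.052, edgeR adjusted p = 2.19e-08), and each call held under all 16 alternatives. Neither single treatment gave a call, with -0.051 in RA vs Veh (SE 0.055, edgeR adjusted p = 0.49) and -0.094 in NR vs Veh (SE 0.055, edgeR adjusted p = 0.177). The RA vs Veh value turned to 0.051 with total scaling and to 0.0097 with the GC and length trend removed. NR vs RA gave -0.043 (SE 0.054, edgeR adjusted p = 0.543), which passed the threshold with that trend removed (-0.11, adjusted p = 0.046). *Dnmt3c*, the rodent gene next to *Dnmt3b* that arose from it and methylates young retrotransposons, had 0 counts in the 4 libraries without retinoic acid, 4 and 7 counts in RA and 5 and 10 counts in NRRA. It was too low to be tested, and how reads were shared between these similar genes is not given in the sources used here.

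*Dnmt3l* (chr10:78041947-78063622, plus strand) was the lowest of the 4 *Dnmt* genes among the members and rested on few reads. It had 85 and 63 counts (4.21 and 3.28 CPM) in Veh, 43 and 57 counts (2.19 and 1.98 CPM) with RA, 74 and 105 counts (3.57 and 3.99 CPM) under NR, and 42 and 36 counts (1.5 and 1.16 CPM) under NRRA. The retinoic acid libraries were below all others, and NR overlapped Veh. The decrease was 2.84-fold in NRRA vs Veh (log2 -1.5, SE 0.22, edgeR adjusted p = 1.20e-06) and 2.87-fold in NRRA vs NR (log2 -1.52, SE 0.21, edgeR adjusted p = 1.15e-06), while 8.64% and 4.6% of all tested genes had a log2 difference at least as large in either direction. NR vs RA gave 0.87 (SE 0.20, edgeR adjusted p = 0.000657). In RA vs Veh the decrease was 1.81-fold (log2 -0.86, SE 0.21, edgeR adjusted p = 0.00133), and without Veh replicate 1 the value was -0.64 (adjusted p = 0.0518). NRRA vs RA gave -0.64 (SE 0.23, edgeR adjusted p = 0.0298), a call that was lost with DESeq2 (-0.67, adjusted p = 0.13) and without RA replicate 1, RA replicate 2 or NRRA replicate 2 (adjusted p between 0.0704 and 0.237). Of its exon bases 2.24% overlap *Aire* on the opposite strand.

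All 3 *Tet* genes were higher in NR and in NRRA than in Veh, although the call of *Tet1* in NRRA was lost when the trend with GC content and length was removed. *Tet3* (chr6:83362373-83459084, minus strand), the most abundant of them, was at 65.2 and 60.2 CPM in Veh, 75.7 and 77.7 with RA, 98.3 and 101 under NR, and 129 and 128 under NRRA. Each condition was separate from the next, in the order Veh, RA, NR and NRRA. *Tet3* rose by 0.29 with RA (SE 0.055, edgeR adjusted p = 9.57e-05), by 0.67 under NR (SE 0.054, edgeR adjusted p = 7.61e-11) and by 1.04 in NRRA (2.05-fold, SE 0.052, edgeR adjusted p = 2.83e-15), and differences of that last size or more were found for 16.2% of all tested genes in NRRA vs Veh. The steps between the treated conditions were called as well, with 0.38 in NR vs RA (SE 0.052, edgeR adjusted p = 7.83e-07), 0.37 in NRRA vs NR (SE 0.049, edgeR adjusted p = 8.31e-07) and 0.74 in NRRA vs RA (SE 0.050, edgeR adjusted p = 1.98e-12). All 6 pairwise differences of *Tet3* kept their direction and call under the 16 alternatives of each comparison.

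*Tet2* (chr3:133463679-133545139, minus strand) was at 16.5 and 18.2 CPM in Veh, 22.5 and 23.5 with RA, 25.7 and 22.9 under NR, and 26.2 and 26.1 under NRRA. Veh was below the 6 other libraries, and RA and NR overlapped. *Tet2* rose by 0.41 with RA (SE 0.085, edgeR adjusted p = 0.000273), by 0.48 under NR (SE 0.084, edgeR adjusted p = 3.47e-05) and by 0.59 in NRRA (SE 0.081, edgeR adjusted p = 5.65e-07). With the GC and length trend removed these values were 0.25, 0.24 and 0.29, still called (adjusted p = 0.00797, 0.012 and 0.00111). No difference among the 3 treated conditions was called. The value of NRRA vs RA was 0.18 (SE 0.075, edgeR adjusted p = 0.0553), which passed with total scaling (adjusted p = 0.0444) and with only these 2 conditions in the fit (adjusted p = 0.0315), and that of NRRA vs NR was 0.11 (SE 0.074, edgeR adjusted p = 0.251), which passed with total scaling (adjusted p = 0.042).

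*Tet1* (chr10:62804570-62908996, minus strand) had 83 to 222 counts per library, that is 4.11 and 5.52 CPM in Veh, 4.79 and 6.24 with RA, 7.56 and 7.33 under NR, and 7.93 and 6.36 under NRRA. Veh and RA overlapped, as did NR and NRRA, and both restricted conditions were above both others, although NRRA vs RA was not called (0.34, SE 0.15, edgeR adjusted p = 0.0682). It passed with no filter on low counts (adjusted p = 0.0426), without RA replicate 2 (adjusted p = 0.0269) and without NRRA replicate 2 (adjusted p = 0.0255). The increase was 0.63 in NR (SE 0.16, edgeR adjusted p = 0.0025) and 0.57 in NRRA (SE 0.16, edgeR adjusted p = 0.00334). The first was lost without Veh replicate 1 (0.45, adjusted p = 0.0543), and the second with the GC and length trend removed (0.22, adjusted p = 0.213), without Veh replicate 1 (0.37, adjusted p = 0.0893) and without NRRA replicate 1 (0.40, adjusted p = 0.0692). NR vs RA gave 0.40 (SE 0.15, edgeR adjusted p = 0.0298), and that call was lost with DESeq2, with total scaling and without RA replicate 1, NR replicate 1 or NR replicate 2 (adjusted p between 0.0786 and 0.246). *Tet1* has the lowest GC content of the 9 genes, with 43.7% of the bases of its longest annotated transcript, against 53.4% for *Tet3*.

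*Tdg* (chr10:82629828-82650799, plus strand) was at 15 and 16.8 CPM in Veh, 14.0 and 16.3 with RA, 13.7 and 14.4 under NR, and 15.5 and 15.8 under NRRA. No order of conditions could be read from these values, since Veh and RA each spanned NRRA. In NRRA vs Veh the log2 difference was -0.024 (SE 0.093, edgeR adjusted p = 0.841), which turned to 0.0895 with total scaling, and in NR vs Veh, the largest of its differences, -0.18 (SE 0.097, edgeR adjusted p = 0.143), which passed the threshold with the GC and length trend removed (-0.24, adjusted p = 0.0329). NRRA vs NR gave 0.16 (SE 0.092, edgeR adjusted p = 0.182) and passed with total scaling (0.24, adjusted p = 0.0421). Of the copies of *Tdg* elsewhere in the genome, *Tdg-ps* had at most 10 counts in a library and was not tested. *Gm9855* had 134 to 216 counts, against 275 to 491 for *Tdg*. Per exon length this copy was the higher of the pair, at 5.19 to 6.94 CPM per kb against 2.55 to 3.13 CPM per kb for *Tdg*. That order rests on the length used, the exons of all annotated transcripts merged, 1194 bases for the copy and 5374 for *Tdg*. It does not show that the copy has more RNA molecules. How the reads of *Tdg* and *Gm9855* were divided is not given in the sources used here, so the values of *Tdg* are uncertain. Of the *Tdg* exon bases 6.83% overlap *Glt8d2* on the opposite strand.

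**Figure D2:**
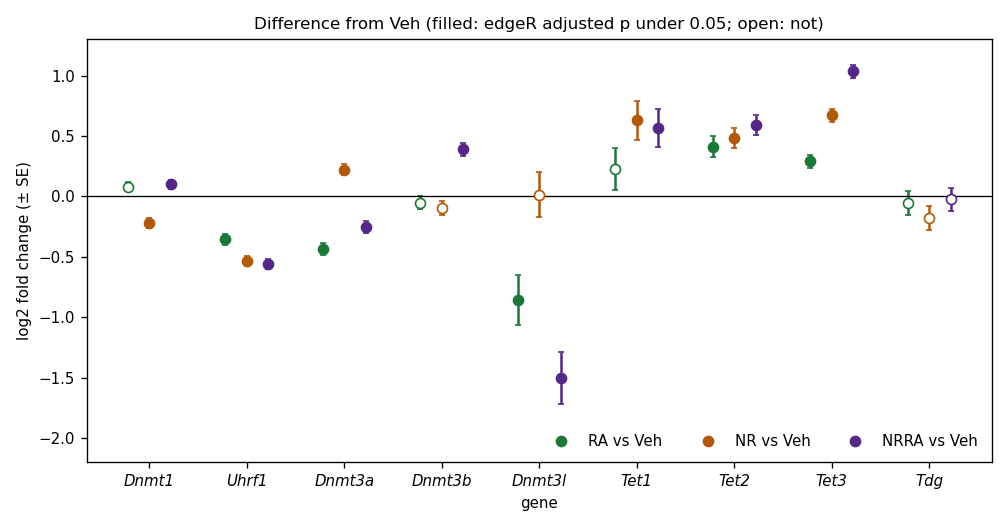
Log2 fold change relative to Veh (y axis) with its SE (bars) for the 9 genes (x axis) in RA, NR and NRRA; filled points passed an edgeR adjusted p of 0.05 and open points did not. The *Tet* genes lie above 0, with the RA point of *Tet1* open, *Uhrf1* lies below 0 in all 3 comparisons, *Dnmt3a* is on opposite sides in RA and NR, and *Dnmt3l* reaches -1.5 in NRRA.

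The interaction asked whether the response to retinoic acid differed between the 2 media, and its value is the NRRA vs NR difference less the RA vs Veh difference, on the log2 scale. It was positive and called for 3 members and negative and called for 0, while 6.37% and 6.58% of all tested genes were called in these directions. *Dnmt3b* had the largest value, 0.54 (SE 0.076, edgeR adjusted p = 1.25e-05), and was called under all 15 alternatives. For *Uhrf1* it was 0.33 (SE 0.062, edgeR adjusted p = 0.000486): retinoic acid went with a decrease of 0.35 in complete medium and a difference of -0.026 in restricted medium. For *Dnmt1* it was 0.24 (SE 0.053, edgeR adjusted p = 0.0026), with 0.080 in complete and 0.32 in restricted medium, and the call was lost without NR replicate 1 (0.20, adjusted p = 0.0592). *Tet2* pointed the other way, with -0.30 (SE 0.11, edgeR adjusted p = 0.0797), and passed without Veh replicate 2 (-0.41, adjusted p = 0.0147) or NR replicate 2 (-0.42, adjusted p = 0.0366). *Dnmt3l* gave -0.66 (SE 0.30, edgeR adjusted p = 0.161), *Tet1* -0.29 (SE 0.22, edgeR adjusted p = 0.45) and *Tdg* 0.21 (SE 0.13, edgeR adjusted p = 0.346), all with wide errors. *Tet3* and *Dnmt3a*, with 0.075 (SE 0.073, edgeR adjusted p = 0.578) and -0.043 (SE 0.068, edgeR adjusted p = 0.755), had the narrowest errors among the genes without a call.

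**Figure D3:**
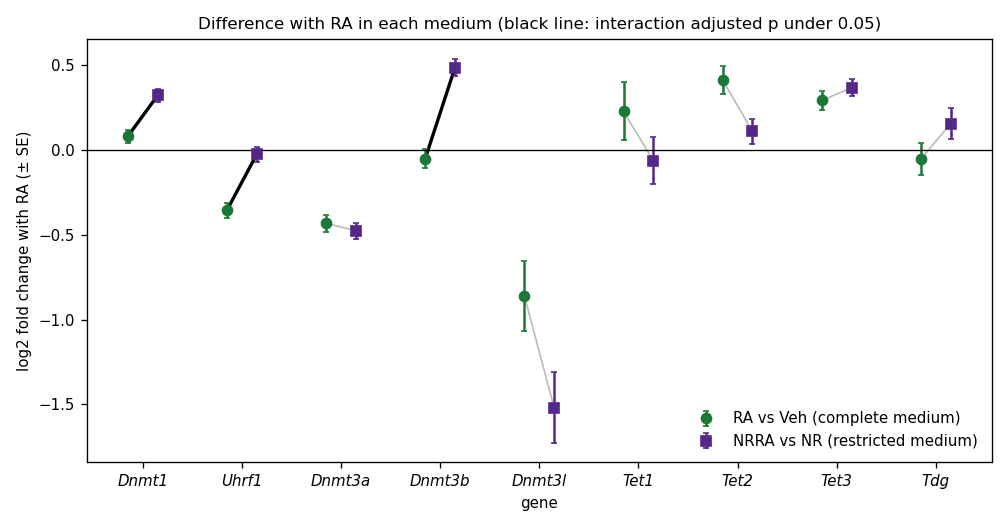
Log2 fold change with retinoic acid (y axis, with SE) for the 9 genes (x axis) in complete medium (circles, RA vs Veh) and in restricted medium (squares, NRRA vs NR); a black line joins the 2 values where the interaction had an adjusted p under 0.05. The black lines of *Dnmt1*, *Uhrf1* and *Dnmt3b* all slope upwards, and *Dnmt3a* and *Tet3* are nearly level.

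Levels of different genes were compared only after division by exon length, as CPM per kb, with the exons of all annotated transcripts of a gene merged. In Veh the order from high to low was *Uhrf1* (81.9 ± 4.07, SD, n = 2), *Dnmt1* (64.0 ± 1.57), *Dnmt3b* (14.7 ± 0.589), *Dnmt3a* (6.60 ± 0.231), *Tet3* (3.75 ± 0.211), *Tdg* (2.96 ± 0.24), *Dnmt3l* (1.25 ± 0.219), *Tet2* (1.03 ± 0.071) and *Tet1* (0.312 ± 0.0646). The libraries of neighbours in this order did not overlap, but those of *Dnmt3l* (lowest 1.10) and *Tet2* (highest 1.08) lay side by side, closer than the SD of *Dnmt3l*. In NRRA the order was *Dnmt1* (68.6 ± 0.438), *Uhrf1* (55.6 ± 0.262), *Dnmt3b* (19.3 ± 0.282), *Tet3* (7.70 ± 0.0725), *Dnmt3a* (5.53 ± 0.0129), *Tdg* (2.91 ± 0.0337), *Tet2* (1.55 ± 0.00092), *Tet1* (0.462 ± 0.0721) and *Dnmt3l* (0.445 ± 0.0816). *Dnmt1* had passed *Uhrf1*, *Tet3* had passed *Dnmt3a*, and *Dnmt3l* had dropped to overlap *Tet1*. In every library both maintenance genes were above all 3 *Tet* genes.

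**Figure D4:**
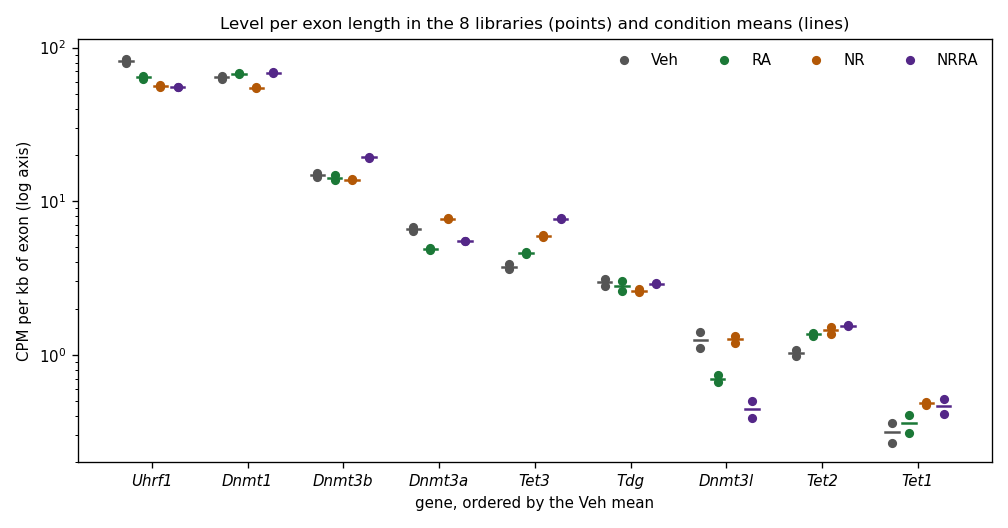
CPM per kb of exon on a log axis (y axis) for the 9 genes, ordered by their Veh mean (x axis), with 1 point per library and lines at condition means. *Uhrf1* (81.9 in Veh) and *Dnmt1* (64.0) stand at the top, *Tet1* (0.312) at the bottom, and *Tet3* rises past *Dnmt3a* in NRRA.

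Other genes of the pathway were taken from lists by role, and are given as counts beside the shares of all genes above. The medians of 5 lists in NRRA vs Veh lay near 0 and changed sign with the setting. With TMM scaling the median log2 difference was -0.0545 for the maintenance and targeting partners, 0.0879 for the readers, -0.0172 for base excision repair, -0.107 for the *Tet* partners and -0.0235 for methyl donor synthesis, against 0.0297 over all tested genes. In the same order the medians were 0.0592, 0.202, 0.0965, 0.00718 and 0.0902 with total scaling, and -0.11, -0.105, -0.0384, -0.26 and -0.146 with the GC and length trend removed. Of 21 partners of maintenance and targeting, 6 were higher and 7 lower in NRRA vs Veh, against 6 and 6 with total scaling and 5 and 11 with the GC and length trend removed. *Hells*, the chromatin remodeler needed for full methylation of repeats, rose from 197 ± 19.2 to 323 ± 6.55 CPM (SD, n = 2) between Veh and NRRA (log2 0.72, edgeR adjusted p = 2.05e-11), and its partner *Cdca7* fell from 164 ± 6.01 to 103 ± 0.29 CPM (log2 -0.67, edgeR adjusted p = 2.31e-12). *Zfp445*, a zinc finger factor that keeps imprints, rose by 0.71 (edgeR adjusted p = 4.77e-09). *Lig1*, the ligase that joins Okazaki fragments and recruits *Uhrf1*, had a positive interaction of 0.42 (edgeR adjusted p = 4.74e-05) and *Morc1*, a germ line silencing gene, a negative one of -0.39 (edgeR adjusted p = 0.0037), lost without RA replicate 2 (adjusted p = 0.0517). *Uhrf2*, the paralog of *Uhrf1*, was at 99.7 ± 8.21 CPM in Veh, 99.3 ± 1.31 with RA, 71.5 ± 3.49 under NR and 72.8 ± 1.41 under NRRA, and fell by 0.48 in NR (edgeR adjusted p = 1.33e-07) and by 0.45 in NRRA (edgeR adjusted p = 1.28e-07). *Trdmt1*, formerly called Dnmt2 and a methyltransferase of transfer RNA, gave 0.49 in NRRA vs Veh (edgeR adjusted p = 0.0106), a call that was lost with DESeq2 (adjusted p = 0.113), with the GC and length trend removed (0.10, adjusted p = 0.587), without Veh replicate 1 (adjusted p = 0.31) and without NRRA replicate 2 (adjusted p = 0.0986).

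Among 11 readers of methylated CG, 5 were higher and 3 lower in NRRA vs Veh, against 6 and 3 with total scaling and 4 and 5 with the GC and length trend removed. *Mbd1*, a methyl-CG binding repressor, was at 67.2 ± 2.29 CPM in Veh, 101 ± 3.46 with RA, 65.6 ± 0.75 under NR and 122 ± 1.87 under NRRA, which gave increases of 0.59 in RA (edgeR adjusted p = 1.02e-09) and 0.87 in NRRA (edgeR adjusted p = 8.48e-14) and an interaction of 0.31 (edgeR adjusted p = 0.00389) that was lost without NR replicate 2 (adjusted p = 0.0651). *Zbtb33*, which encodes the reader Kaiso, rose by 0.65 in NRRA (edgeR adjusted p = 5.36e-09) and *Zbtb4* fell by 0.63 (edgeR adjusted p = 1.26e-10). Exon bases of *Zbtb33* overlap *Tmem255a* on the opposite strand by 9.25%.

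Of 18 genes of base excision repair and active demethylation, 16 were tested, and 5 were higher and 5 lower in NRRA vs Veh, against 6 and 4 with total scaling and 3 and 7 with the trend removed. The stress genes *Gadd45g* and *Gadd45b*, which have been linked to demethylation, had the largest changes. *Gadd45g* went from 12.6 ± 1.34 CPM in Veh to 24.1 ± 0.942 with RA, 51.8 ± 2.13 under NR and 69.4 ± 3.88 under NRRA (log2 2.45 in NRRA vs Veh, edgeR adjusted p = 1.26e-19), with an interaction of -0.51 (edgeR adjusted p = 0.0019). *Gadd45b* rose with restriction, by 1.61 in NR (edgeR adjusted p = 2.98e-13) and 1.73 in NRRA (edgeR adjusted p = 1.64e-14), and its value in RA was 0.11 (edgeR adjusted p = 0.497). *Gadd45a* had an interaction of 0.35 (edgeR adjusted p = 0.0252), lost with DESeq2 and without any one of 6 libraries (adjusted p up to 0.241), and 19.1% of its exon bases overlap *E230016M11Rik*. *Ung*, the uracil glycosylase, fell from 87.4 ± 7.46 CPM in Veh to 46.3 ± 0.26 in RA and 46.5 ± 0.907 in NRRA (log2 -0.91 in NRRA vs Veh, edgeR adjusted p = 4.73e-13).

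Of 12 *Tet* partners and genes of cofactor supply, 1 was higher and 5 lower in NRRA vs Veh, which became 4 and 3 with total scaling and 0 and 7 with the GC and length trend removed. *Idh3a*, a subunit of the mitochondrial dehydrogenase that makes 2-oxoglutarate, the co-substrate of *Tet* enzymes, fell by 0.62 (edgeR adjusted p = 7.24e-10). *Cxxc5* fell by 0.49 (edgeR adjusted p = 3.81e-08). *Ogt*, the glycosyltransferase bound by *Tet* proteins, had 0.25 in NR vs Veh (edgeR adjusted p = 0.000214), a call lost with the GC and length trend removed (0.045, adjusted p = 0.341), and an interaction of -0.25 (edgeR adjusted p = 0.0195), lost without RA replicate 2, NR replicate 1 or either NRRA library (adjusted p up to 0.103). Of 16 genes that supply methyl donors, 15 were tested, and 3 were higher and 6 lower in NRRA vs Veh, against 5 and 3 with total scaling and 4 and 8 with the trend removed. *Shmt2*, the mitochondrial serine hydroxymethyltransferase, fell from 197 ± 14.9 to 95.4 ± 0.772 CPM (log2 -1.04, edgeR adjusted p = 5.01e-15). The folate enzyme *Mthfd1* fell from 85.8 ± 2.67 to 45.9 ± 1.77 CPM (log2 -0.90, edgeR adjusted p = 1.71e-13). *Mtr*, methionine synthase, was higher in NR by 0.31 (edgeR adjusted p = 4.71e-06) and lower in NRRA by 0.52 (edgeR adjusted p = 5.94e-10), with an interaction of -0.43 (edgeR adjusted p = 5.54e-05). *Ahcy*, which removes the product of methylation, fell in NR by 0.47 (edgeR adjusted p = 5.68e-08) and had an interaction of 0.29 (edgeR adjusted p = 0.00844), lost without RA replicate 2, either NR library or NRRA replicate 2 (adjusted p up to 0.128).

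Genes of DNA replication were set beside *Dnmt1* and *Uhrf1*, since both act on newly copied DNA. Of 25 S-phase genes, 20 were lower and 4 higher in NR vs Veh (median -0.285, against 0.00569 over all tested genes), 10 lower and 4 higher in RA vs Veh (median -0.0851), and 15 lower and 3 higher in NRRA vs Veh (median -0.2). Total scaling left the NR vs Veh counts at 19 lower and 4 higher, but gave 6 lower and 6 higher in RA vs Veh, where the median turned to 0.0162, and 8 lower and 7 higher in NRRA vs Veh (median -0.0858). In NRRA vs NR, 13 were higher and 2 lower (median 0.149), and the interaction was positive and called for 14 and negative and called for 3 (median 0.201, against 0.0185 over all tested genes). The number of positive calls was 7 without NR replicate 1, 9 without NR replicate 2 and 9 without NRRA replicate 2. *Rrm2*, a ribonucleotide reductase subunit, fell in NR by 0.89 (edgeR adjusted p = 7.56e-13) and had an interaction of 0.59 (edgeR adjusted p = 3.75e-06). *Mcm7*, a subunit of the replicative helicase, fell in NRRA by 0.45 (edgeR adjusted p = 1.21e-09). *Chaf1b*, a histone chaperone subunit, went against most of the list in NR vs Veh and for the interaction, but not in NRRA vs Veh, with 0.33 in NR (edgeR adjusted p = 6.92e-05), -1.26 in NRRA (edgeR adjusted p = 1.03e-14) and an interaction of -0.72 (edgeR adjusted p = 3.55e-06). *Ccne2*, the cyclin of S-phase entry, was higher in NRRA by 0.94 (edgeR adjusted p = 1.07e-09). The part of these genes in the values of *Dnmt1*, *Uhrf1* and *Dnmt3b* was not tested. Opposite-strand neighbours overlap 17.4% of the exon bases of *Ccne2*, 12.6% of *Mcm7* and 5.79% of *Lig1*. Among the 25 genes counted here the overlap was larger for *Fen1* (84.2%), *Gins2* (67.3%) and *Chaf1a* (52.5%), so their values are uncertain.

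**Figure D5:**
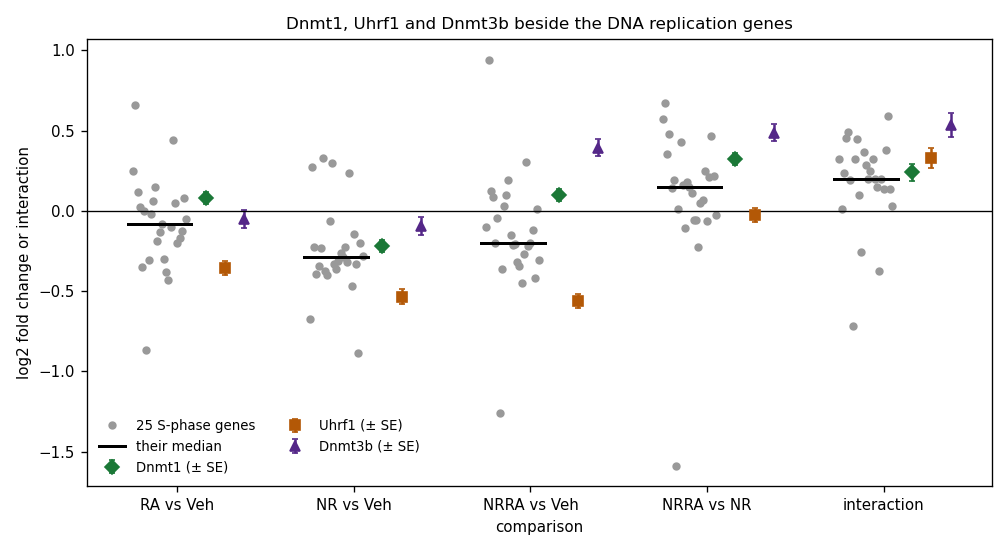
Log2 fold change or interaction (y axis) of 25 S-phase genes (grey points, with their median as a black line) and of *Dnmt1*, *Uhrf1* and *Dnmt3b* (coloured points with SE) in 5 contrasts (x axis). In NR vs Veh most grey points and *Dnmt1* and *Uhrf1* lie below 0, and for the interaction most grey points and all 3 members lie above it.

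RNA of cell type markers moved with the conditions too, and not all markers of a type moved in the same direction. The 12 fibroblast markers summed to 19986 to 20102 CPM in Veh, 16276 to 17461 with RA, 30058 to 31417 under NR and 24111 to 24916 under NRRA, and all 12 had reads in every library; 8 were higher and 3 lower in NR vs Veh, 6 and 6 in NRRA vs Veh, and 1 and 9 in RA vs Veh. *Vim*, one of these 12, was lower in NR by a log2 difference of -0.89 (edgeR adjusted p = 5.69e-17) and in NRRA by -1.37 (edgeR adjusted p = 3.79e-21). The 6 germ cell markers summed to 767 to 795 CPM in Veh, 865 to 925 with RA, 947 to 972 under NR and 1020 to 1041 under NRRA, and 3 of them were higher and 3 lower in NRRA vs Veh. The 12 markers of undifferentiated spermatogonia summed to 967 to 1031 CPM in Veh, 384 to 396 with RA, 985 to 1011 under NR and 315 to 320 under NRRA. *Cxcl12*, 1 of the 12, went against most of the list in NR and NRRA and weighs on these sums. Its means were 51.2 CPM in Veh, 42.0 with RA, 191 under NR and 150 under NRRA. Of these 12, 0 were higher and 11 lower in RA vs Veh, 3 higher and 7 lower in NR vs Veh (median -0.314), and 1 higher and 10 lower in NRRA vs Veh. *Bcl6b* fell by 1.118 on the log2 scale (edgeR adjusted p = 6.68e-15) in NR vs Veh. *Lhx1* fell by 0.88 (edgeR adjusted p = 1.10e-10) in that comparison. *Zbtb16* rose there by 0.58 (edgeR adjusted p = 2.06e-10). *Zbtb16*, also known as PLZF, was at 156 to 171 CPM in Veh, 31.8 in both RA libraries, 239 to 249 under NR and 35.2 to 35.7 under NRRA, and *Gfra1*, the GDNF receptor, went from 101 CPM in both Veh libraries to 26.6 and 27.8 CPM in NRRA. All 10 markers of meiotic prophase were higher in NRRA vs Veh, where they summed to 703 to 727 CPM against 336 to 340 in Veh, and 8 of the calls were left with the GC and length trend removed, where *Tex12* turned to -0.194 (adjusted p = 0.209). Sertoli markers were sparse, at 16.98 to 49.97 CPM in sum, with *Fshr* at 1 count or fewer in every library. In bulk RNA, fewer cells of a type and less RNA per cell cannot be told apart, and the part of feeder cells and of the germ cell stages in the values of the 9 genes was not tested.

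The genes with the most similar course over the 8 libraries differed from member to member. By Pearson's r of log2 CPM over the 8 libraries, 2 of each condition, among 14806 genes averaging 50 counts or more, the nearest were *Ergic1* (0.995), *Phf12* (0.993) and *Melk* (0.992) for *Dnmt1*, and *H13* (0.997), *Ap2m1* (0.994) and *Tufm* (0.993) for *Uhrf1*. *Dnmt3a* was followed most closely by *Igsf9*, *Fosl2* and *Mest* (0.997 each), *Dnmt3b* by *Hip1r* (0.991), *Pole* (0.988) and *Cplx2* (0.985), and *Dnmt3l* by *Cass4* (0.996), *Usp30* (0.993) and *B4galt3* (0.991). *Zfp516* (0.997), *Gm21451* (0.997) and *Spg20* (0.996) were nearest to *Tet3*, *Ppp1r3c* (0.996), *Rb1* (0.994) and *Ccdc39* (0.994) to *Tet2*, and *Ndc80* (0.977), *4833420G17Rik* (0.971) and *Lonrf2* (0.96) to *Tet1*. For *Tdg* the highest values were lower, with *Ska1* (0.913), *Etfb* (0.882) and *mt-Nd4l* (0.874). Between members, r was -0.977 for *Uhrf1* and *Tet2*, -0.89 for *Uhrf1* and *Tet3*, -0.886 for *Dnmt1* and *Dnmt3a*, and 0.858 for *Tet2* and *Tet3*. These values share their libraries and are given as a description.

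The promoters of the 9 genes, all found in RefSeq, differed most in CG content. Over 32851 promoters the median was 7 CG in 300 bases. *Tet2* (chr3:133544341-133544640) held 57, more than 99.8% of promoters, and the first 2 windows of *Dnmt3a* held 46 and 47, while the 3 windows of *Dnmt3l* held 6, 4 and 3. *Tet3*, the member with the largest increase in NRRA vs Veh, had 22 CG in its window (chr6:83441629-83441928), and the window at the 5′-most start of *Dnmt3l* (chr10:78042037-78042336), the member with the largest decrease, had 6. Both are given on the gene's own strand with each CG in capitals.
Tet3: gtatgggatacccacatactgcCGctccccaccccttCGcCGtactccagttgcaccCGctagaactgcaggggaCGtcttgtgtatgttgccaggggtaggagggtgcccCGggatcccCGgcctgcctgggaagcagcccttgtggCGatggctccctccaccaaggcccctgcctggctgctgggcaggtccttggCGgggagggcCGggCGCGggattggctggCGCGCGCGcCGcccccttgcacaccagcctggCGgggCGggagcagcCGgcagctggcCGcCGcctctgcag
Dnmt3l: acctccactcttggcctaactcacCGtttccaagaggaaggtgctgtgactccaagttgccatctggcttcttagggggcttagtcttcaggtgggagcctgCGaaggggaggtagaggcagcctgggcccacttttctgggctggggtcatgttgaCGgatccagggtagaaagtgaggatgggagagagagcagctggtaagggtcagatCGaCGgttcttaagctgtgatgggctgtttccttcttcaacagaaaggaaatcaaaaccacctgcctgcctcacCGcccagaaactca
Direct repeats of the retinoic acid receptor type were also looked for, as pairs of AGGTCA spaced by 5 or by 2 bases, pairs of AGTTCA spaced by 5 bases, and GGTTCA with AGTTCA spaced by 5 bases. They occurred in 0.00913%, 0.00913%, 0.0244% and 0.00609% of promoters and in no window of a member. The Atf4 letters TGATGNAAT, present in 0.965% of promoters, were found in no member window either. The E box CACGTG, present in 7.15% of promoters, was found in 1 window each of *Dnmt3l*, *Tdg* and *Dnmt3a*, at positions -44, -28 and -80.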

How the data were processed

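The authors captured poly(A) RNA from 8 SSC cultures in 4 conditions, sequenced stranded libraries as read pairs and deposited counts, a whole number of reads per gene and library, without normalization. Per the labels' processing notes, reads were aligned to mm10 with STAR 2.6.1c and counted with featureCounts 1.6.4. Whether counting used the strand is not given in the sources used here, so genes with overlapping exons are uncertain. The labels give 10 ng/ml of GDNF and the paper 15 ng/ml, and they name different library kits.

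From the counts, genes were filtered with filterByExpr, scaled by TMM and fitted in R 4.3.3 with edgeR 4.0.16 (quasi-likelihood F test, Benjamini-Hochberg adjustment over 20477 genes, 1 coefficient per condition). The SE of a log2 fold change is its size divided by the square root of F. CPM used TMM-scaled totals, and likeness log2 CPM with a prior count of 2. The fit was also run on simulated data, in which few genes were changed, equally in both directions and in NRRA alone. That setting is unlike these data, where many genes were called, so it cannot check the effect of the scaling. Alternatives were DESeq2 1.42.0, other scalings, no filter, fewer libraries, a replicate block, and removal of a loess trend with GC content and exon length. Replicate libraries differed by more than sampling noise (chi-square per gene 1.58 to 3.93). The edgeR p-values rest on 1 spread per gene, estimated between the 2 libraries of each condition over all 4 conditions together. That spread had 4 residual degrees of freedom and was drawn towards that of other genes, with 21.04 prior degrees of freedom.

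Identifiers were matched to GENCODE M21 (GRCm38), which held 55240 of 55421. Members and gene lists were chosen with earlier results of these data known. Named genes were the 9 members in all contrasts. From each list they were also up to 3 called genes with the largest log2 value in NRRA vs Veh and up to 2 for the interaction (mean of at least 50 counts), not all of which are printed for marker lists, and 1 of which is not reported here. Named too were the 3 genes nearest to each member by Pearson's r, near copies, and *Ddx4*, *Zbtb16*, *Gfra1*, *Kit*, *Stra8*, *S100a4* and *Col1a1*. *Fshr* was named after its values were seen.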

Additional observations from a re-analysis of the deposited data

Results flagged for a closer look

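The response to retinoic acid differed between complete and restricted medium for 3 of the 9 genes by the interaction term of the edgeR fit, which is what marked them for a closer look. The value was 0.24 for *Dnmt1* (edgeR adjusted p = 0.0026), 0.54 for *Dnmt3b* (edgeR adjusted p = 1.25e-05) and 0.33 for *Uhrf1* (edgeR adjusted p = 0.000486), all on the log2 scale and all positive. The shapes differed. *Dnmt3b* was higher with both treatments than in all 6 other libraries, *Dnmt1* was lowest in NR and returned with retinoic acid, and *Uhrf1* was below Veh in all 3 treatments, with NRRA at the level of NR and not further down by the RA difference. The S-phase genes that moved in the same direction were given beside these values, and their part was not tested.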

How the results depend on the processing

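Over the 9 genes and 7 contrasts, 935 alternative values kept their direction and their side of the threshold, 23 lost a call, 16 gained one and 25 changed sign, none of them from a called value. Asking for a fold of at least 2 cut the number of members called to 0 in RA vs Veh, NR vs Veh, NRRA vs RA, NR vs RA and the interaction, 1 in NRRA vs NR and 2 in NRRA vs Veh. Leaving out each library in turn, with a lone library assumed to vary like the others, gave 5 to 6 members in RA vs Veh, 5 to 6 in NR vs Veh, 6 to 8 in NRRA vs Veh, 4 to 5 in NRRA vs RA, 5 to 5 in NRRA vs NR, 5 to 6 in NR vs RA and 2 to 4 for the interaction. The replicate numbers did not pair the samples (correlations of deviations -0.0334 to 0.0225), and the replicate block gave 5, 6, 8, 5, 5, 6 and 3 members in the same order. Values that changed sign were uncalled with edgeR and TMM, where the largest in size was 0.227 (*Tet1* in RA vs Veh). With total scaling they were 0.05072 for *Dnmt3b* and 0.04852 for *Tdg* in RA vs Veh, 0.0895 for *Tdg* in NRRA vs Veh, and 0.0178 for *Tet1* and 0.05553 for *Uhrf1* in NRRA vs NR, and with upper quartile scaling 0.00953 for *Tdg* in NRRA vs Veh. With the GC and length trend removed they were 0.009654 for *Dnmt3b* in RA vs Veh, -0.02683 for *Dnmt1* and -0.01138 for *Tdg* in NRRA vs RA, -0.01707 for *Tet2* in NR vs RA and 0.007594 for *Uhrf1* in NRRA vs NR. With a library left out, the values ranged from -0.1025 to 0.01162 for *Dnmt3b*, -0.1826 to 0.04877 for *Tdg* and -0.003801 to 0.4703 for *Tet1* in RA vs Veh, -0.1367 to 0.227 for *Dnmt3l* in NR vs Veh, -0.1027 to 0.05741 for *Tdg* in NRRA vs Veh, -0.06266 to 0.1575 for *Tdg* in NRRA vs RA, -0.2246 to 0.0941 for *Tet1* in NRRA vs NR, -0.09874 to 0.005104 for *Dnmt3b*, -0.2185 to 0.001555 for *Tdg* and -0.007114 to 0.1522 for *Tet2* in NR vs RA, and -0.02361 to 0.09722 for the interaction of *Tet3*. The causes were not tested. *Dnmt3l* and *Tet1* had the fewest counts of the members, 36 to 222 per library, and their part in lost calls was not tested.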
